A study of Glycine max with 24 samples.

Results

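A set of 148 genes had a higher signal in the leaves of the soybean accession YH than in the leaves of the accession CD at both phosphorus levels, while the root signals of both accessions lay close together. The members were chosen by measured values, namely the mean log2 intensity of each group of 3 arrays. Probe sets were taken where a single gene symbol was annotated, with 1 copy kept of identical rows (32386 of 75990), and of these 24133 had YH and CD root means less than 0.5 apart in both P levels. Each was scored by the lower of the 2 YH leaf means minus the higher of the 2 CD leaf means. Of the 150 highest, BZIP117 (score 1.63) and MYBJ2 (1.51) were left out because symbols of their families were excluded by the rule, which left 148 members with 148 distinct symbols. The YH and CD leaf levels given for the members are therefore a description of how they were selected, and no test was applied to them.

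YH (Yunhefengwodou, sensitive to low P) and CD (Chundou, tolerant of low P) are soybean (Glycine max) accessions whose seedlings were grown hydroponically in diluted Hoagland solution for 10 days. P was supplied at 0.005 mmol/L (low P) or at 0.5 mmol/L (normal P). The groups were leaves of YH in low P and in normal P, leaves of CD in low P and in normal P, and the roots of both accessions in the same conditions. Each of these 8 groups had 3 biological replicates, measured on 1 Affymetrix Soybean Gene 1.1 ST array each, 24 arrays in all. Accession is a difference between whole genotypes, so no single gene or allele separates the groups. In bulk tissue, fewer cells of a type and less RNA per cell cannot be told apart.

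Phosphate enters ATP and the sugar phosphates of carbon fixation, so leaves as well as roots draw on its supply. Among the members with a gene name are Rubisco activases, chloroplast proteins that release inhibitors from the active site of Rubisco and so keep carbon fixation running. COL2B belongs to the CONSTANS-like zinc finger family, whose founding member in Arabidopsis links day length to flowering. Of the 148 members, 137 carry only a locus name (LOC), 145 are annotated as protein-coding, 2 as long non-coding RNA and 1 as a transcribed pseudogene. The annotation gives no description for the LOC genes, and no role is given for them here.

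The array medians lay between 2.83 and 2.91 on the log2 scale and the lower quartiles between 1.54 and 1.67. As a check of the tissue labels, 7 of 7 leaf marker genes (Rubisco activases, the Rubisco small subunit RBCS1 and the light-harvesting protein CAB3) had all leaf means above all root means. The markers RCA03 and RCABETA are themselves members, so their leaf and root means also entered the rule. The list of 32 root markers, made up mainly of ALMT malate transporter genes, was mixed. Of these, 8 had all root means above all leaf means, among them the nitrate transporter NRT2 and CASP2, and 11 had the reverse.

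Scores of the 148 members ranged from 1.45 to 4.61 with a median of 1.90 (2.73-fold to 24.5-fold, median 3.73-fold), and 62 members had a score of at least 2. The median score over all probe sets with equal roots was -0.22. At the lower end, the last member was LOC100797813 (score 1.4511), with means of 3.66 in low P and 3.40 in normal P in YH leaves, against 1.94 and 1.95 in CD leaves. The first probe set outside, LOC100775215 (score 1.4508), had 7.13 and 6.71 in YH leaves, against 5.26 and 5.19 in CD leaves. The members just inside and just outside therefore had almost the same score.

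The median over the members of the group mean was 5.97 in low P and 6.0 in normal P in YH leaves, and 3.59 and 3.64 in CD leaves. In roots it was 2.80 in low P and 2.74 in normal P for YH, and 2.67 and 2.61 for CD. The median difference of YH minus CD in leaves was 2.31 in low P (1.5 to 4.68) and 2.17 in normal P (1.45 to 5.29). In roots, within the limit set by the rule, it was 0.10 in low P and 0.13 in normal P, with YH the higher for 91 and 102 members. All root means of 72 members were under the lowest array median, and those of 21 under the highest lower quartile. For such members equal roots may only mean a dim signal in both accessions.

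All 6 YH leaf arrays lay above all 6 CD leaf arrays for 135 of the 148 members (91.2%). Over all 75990 probe sets this share was 4.37%, and since the rule used the same leaf values nothing is read from that difference. The other 13 members overlapped. LOC100782113 had 7.35, 9.23 and 6.87 in low P and 7.53, 6.94 and 8.57 in normal P in YH leaves, against 5.21, 4.42 and 7.07 in low P and 4.0, 7.01 and 5.73 in normal P in CD leaves. Its highest CD leaf array was above its lowest YH leaf array, and the replicates of this gene were spread widely in both accessions but not in roots (3.32 to 3.96 over the 12 root arrays).

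**Figure D1:**
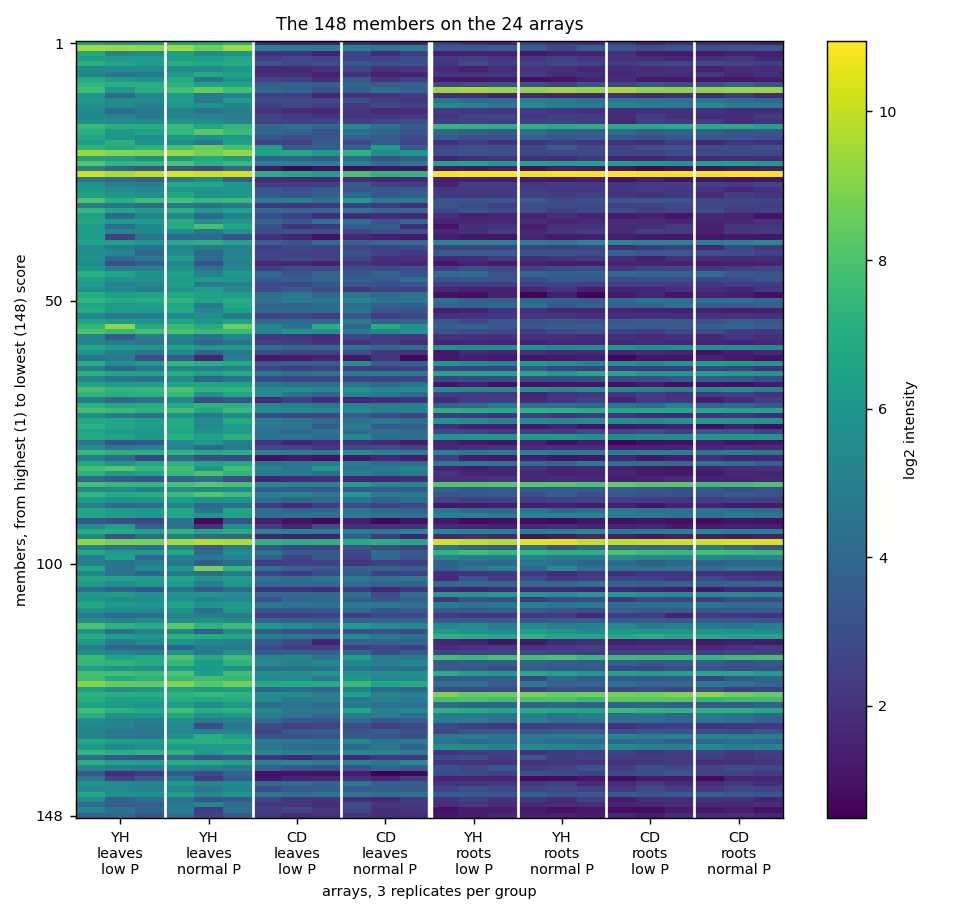
Log2 intensity (colour) of the 148 members (rows, from the highest score at the top) on the 24 arrays (columns, 3 replicates per group). The 6 YH leaf columns are brighter than the 6 CD leaf columns in nearly all rows, and the YH and CD root columns look alike because the rule asked for root means less than 0.5 apart.

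The 6 YH leaf arrays were not alike. The median over the members was 6.36, 5.77 and 5.67 in low P and 6.33, 5.68 and 6.06 in normal P on replicates 1, 2 and 3 of YH leaves. In CD leaves it was 3.52, 3.42 and 3.57 in low P and 3.77, 3.48 and 3.49 in normal P. Replicate 1 was thus the highest of the YH leaf arrays in both P levels. In YH leaves in low P it was the highest of the 3 for 138 members (93.2%), against 40.4% of all probe sets, and in normal P for 99 members (66.9%), against 36.7%. In CD leaves these shares were 48.6% in low P (all probe sets, 39.7%) and 61.5% in normal P (all probe sets, 36.1%).

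Replicate 1 of YH leaves was left out in both P levels as a further alternative, which was added once the data had been seen. The median score of the 148 members was then 1.66 and the lowest 0.89, and 145 had a score of at least 1. The rule chose 133 of the 148 again. The part of this replicate in the size of the leaf difference beyond these values was not tested. The median SD of the members was 0.402 in low P and 0.461 in normal P in YH leaves, against 0.213 and 0.315 in CD leaves, while over all probe sets it was 0.265 and 0.238 in YH leaves and 0.185 and 0.195 in CD leaves.

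Photosynthesis genes were represented by 2 Rubisco activases. RCA03 had 6.40, 6.13 and 6.31 in low P and 6.42, 6.38 and 6.65 in normal P in YH leaves, against 2.44, 2.80 and 2.64 in low P and 2.52, 2.62 and 3.07 in normal P in CD leaves. The CD leaf values were close to those of roots, which lay between 2.09 and 2.56 in YH and between 1.63 and 2.13 in CD. RCA03 was therefore at a leaf level well above roots in YH, whereas in CD its leaf and root levels were less than 1 apart on the log2 scale.

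RCABETA had 9.38, 9.07 and 8.93 in low P and 9.41, 8.78 and 9.24 in normal P in YH leaves, against 6.68, 6.86 and 6.27 in low P and 7.29, 5.67 and 5.98 in normal P in CD leaves. Root values lay between 2.68 and 3.15 in YH and between 2.64 and 3.0 in CD. Unlike RCA03, it was well above the root level in the leaves of both accessions, at different heights.

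The 5 genes with an RCA symbol were all higher in YH leaves in both P levels. RCA11 was higher by 2.37 in low P and 1.67 in normal P, RCA14 by 1.63 and 1.82, and RCAALPHA by 0.64 and 0.92. The root means of these 3 were 0.5 or more apart in at least 1 P level, which kept RCA11 and RCA14 out of the members. RCAALPHA also had a score of 0.64, under the lowest score of a member (1.45). The 2 other genes of the photosynthesis list ran the other way in leaves. CAB3 averaged 9.57 in low P and 9.05 in normal P in YH leaves, against 10.16 and 10.03 in CD leaves. RBCS1 averaged 4.82 and 4.96 in YH leaves, against 6.15 and 6.07 in CD leaves. The accessions thus differed in opposite directions within this short list.

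COL2B had 9.53, 9.41 and 9.28 in low P and 9.44, 8.62 and 9.48 in normal P in YH leaves, against 5.24, 5.12 and 5.0 in low P and 5.03, 4.71 and 4.89 in normal P in CD leaves. Over all 12 root arrays it lay between 2.82 and 3.73. CD leaves were above the roots of CD, and YH leaves were far above both. Among the 10 CONSTANS-like genes on the array, COL2A was also higher in YH leaves, by 3.70 in low P and 4.40 in normal P, and was not a member because its root means differed by more than the limit. COL16 was lower in YH leaves, by -2.43 in low P and -2.96 in normal P. Of the 10, 5 had a score above 0 and 4 were lower in YH leaves in both P levels. Among the 24133 probe sets with equal roots, 6966 had a score above 0. The 10 genes were not limited to equal roots, which COL2A, COL8 and COL13 of the 5 did not have. COL2A and COL2B may share probes as near-identical copies, so how far their signals are separate is uncertain.

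Transporters gave 3 members of 107 genes measured in the list, which goes by symbol and may hold genes that are not transporters. The members made up 0.457% of all probe sets with a single symbol. SWEET34, of the family of SWEET sugar transporters, had 7.08, 6.01 and 6.52 in low P and 7.41, 8.25 and 7.65 in normal P in YH leaves, against 3.88, 3.66 and 3.14 in low P and 4.31, 3.94 and 3.23 in normal P in CD leaves. The root values were 3.53 to 4.28 in YH and 3.28 to 4.27 in CD, much like CD leaves. All YH leaf arrays were higher than every other array for this gene. Of the 32 SWEET genes, 17 had a score above 0 and 4 a score of at least 1. Among the 24133 probe sets with equal roots these counts were 6966 and 326. Of the 4, SWEET34 is the member, and SWEET11, SWEET21 and SWEET29 did not have equal roots. The family was not limited to equal roots, so the counts are not matched and nothing is read from them. Some of the 17 were dim in every group, such as SWEET1 (score 0.0087, group means 0.83 to 1.03). SWEET29 was higher in YH leaves by 3.11 in low P and 3.80 in normal P, while SWEET20 ran the other way with -1.52 and -3.40.

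NRAMP6A, of a family of metal ion transporters, had 7.14, 6.60 and 5.87 in low P and 6.47, 5.19 and 6.17 in normal P in YH leaves, against 4.10, 3.21 and 3.88 in low P and 3.26, 3.82 and 3.11 in normal P in CD leaves. ALMT2, named for malate transporters that aluminium activates, had 5.12, 4.13 and 4.36 in low P and 5.24, 4.11 and 4.36 in normal P in YH leaves, against 2.42, 1.73 and 2.45 in low P and 2.95, 2.52 and 2.81 in normal P in CD leaves. Neither gene overlapped between the accessions in leaves. Of the 12 NRAMP genes 1, the member, had a score of at least 1, and of the 20 ALMT genes 2 did, the member and ALMT21. The members were chosen for high scores, so nothing is read from the lower scores of their relatives. Among the 24133 probe sets with equal roots, 326 had a score of at least 1, whereas ALMT21 did not have equal roots.

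**Figure D2:**
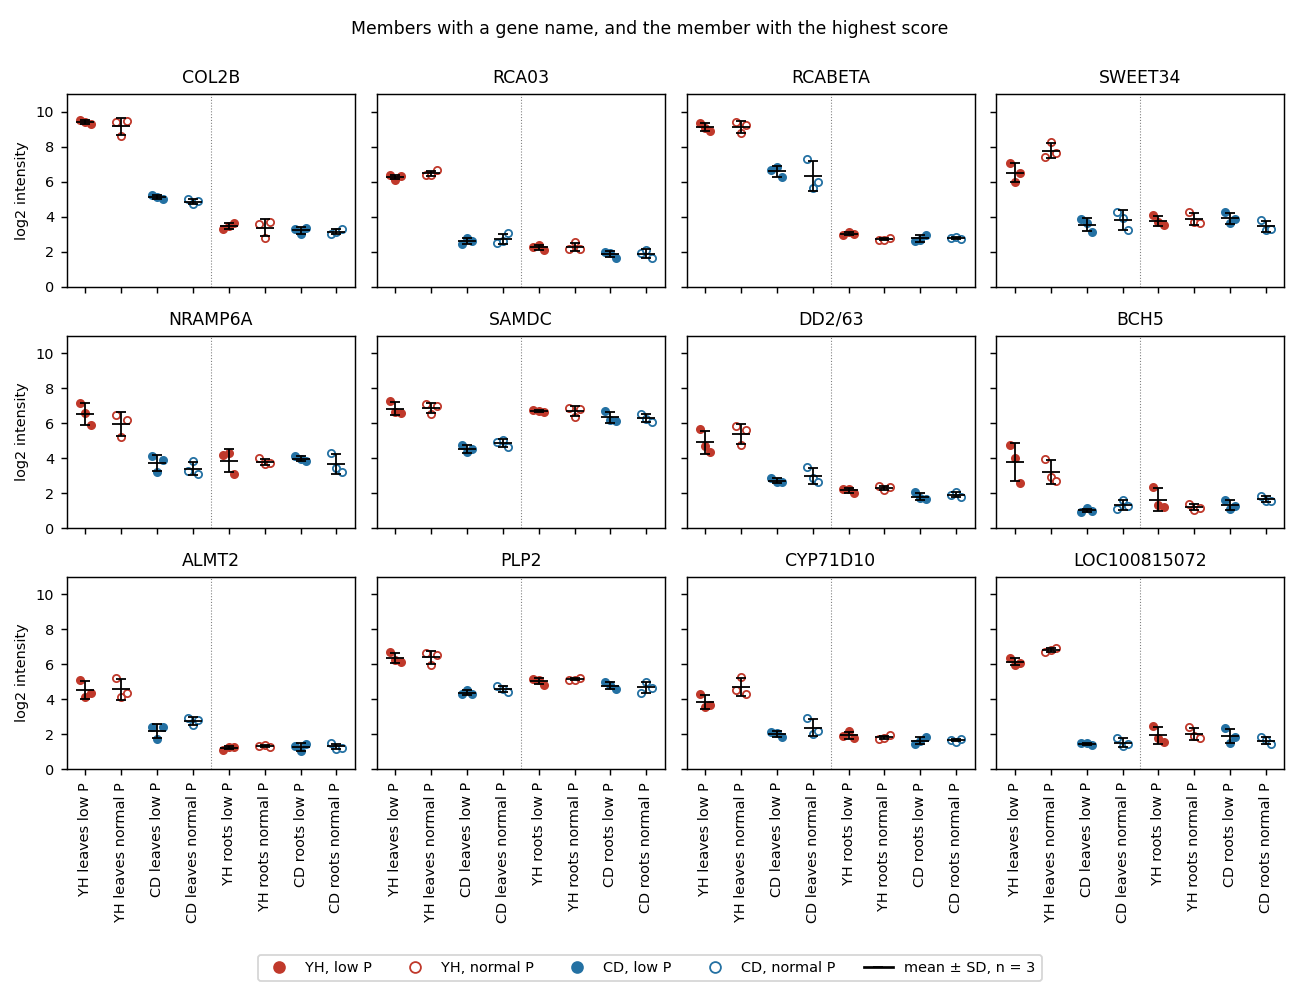
Log2 intensity on each array of the 11 members with a gene name and of LOC100815072, the member with the highest score. Points are single arrays, the black line and bars are the mean ± SD (n = 3), and in each panel the YH leaf points lie above the CD leaf points.

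SAMDC, which encodes S-adenosylmethionine decarboxylase of polyamine synthesis, had 7.24, 6.62 and 6.58 in low P and 7.07, 6.51 and 6.99 in normal P in YH leaves, against 4.75, 4.33 and 4.52 in low P and 4.92, 5.03 and 4.62 in normal P in CD leaves. Roots were at 6.36 to 6.88 in YH and 6.08 to 6.70 in CD. Here YH leaves were at the root level and CD leaves were the low ones.

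CYP71D10 is a cytochrome P450, 1 member of 66 genes of that list. It had 4.29, 3.55 and 3.67 in low P and 4.54, 5.30 and 4.33 in normal P in YH leaves, against 2.14, 2.10 and 1.85 in low P and 2.92, 2.05 and 2.17 in normal P in CD leaves. It stood at the lower end of the scores. BCH5 had 4.74, 4.0 and 2.60 in low P and 3.98, 2.92 and 2.67 in normal P in YH leaves, against 0.95, 1.13 and 0.97 in low P and 1.07, 1.62 and 1.26 in normal P in CD leaves. The CD leaf means of BCH5 lay under the lower quartile of the arrays, so its fold is uncertain, and its YH replicates spread over more than 2 on the log2 scale in low P. All 4 genes with a BCH symbol were higher in YH leaves, and of these only the member BCH5 had equal roots. BCH2 differed by 3.81 in low P and 3.44 in normal P, and BCH3 by 0.47 and 1.20. Of the 24133 probe sets with equal roots, 6966 had a score above 0, so the shared direction of 4 genes says little.

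PLP2 had 6.68, 6.27 and 6.15 in low P and 6.64, 5.98 and 6.56 in normal P in YH leaves, against 4.33, 4.54 and 4.31 in low P and 4.77, 4.61 and 4.41 in normal P in CD leaves. DD2/63 had 5.66, 4.68 and 4.35 in low P and 5.83, 4.73 and 5.58 in normal P in YH leaves, against 2.87, 2.63 and 2.64 in low P and 3.49, 2.88 and 2.62 in normal P in CD leaves. Neither gene overlapped in leaves. The lists of UDP-glycosyltransferases (9 genes), lipoxygenases (5), chalcone and flavonoid enzymes (29), peroxidases (7), ethylene-response factors (17), protease inhibitors and storage proteins (5), pathogenesis-related genes (15), auxin genes (14) and jasmonate genes (7) held 0 members by symbol. These lists go by the main symbol alone, and the member LOC732579, which carries the ERF synonym GmERF023, is therefore not counted among the ethylene-response factors.

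**Figure D3:**
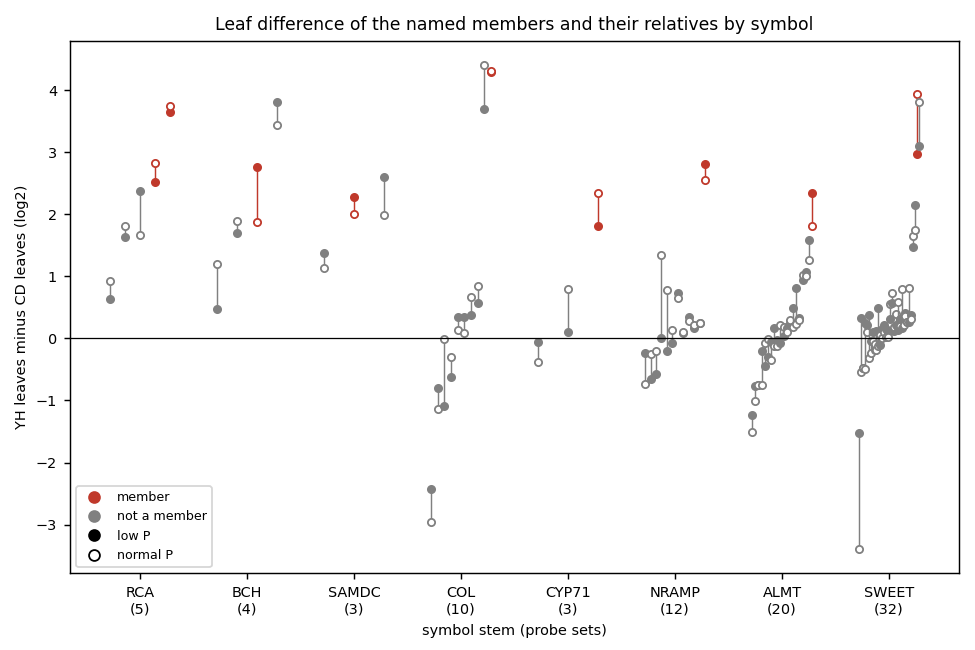
YH leaves minus CD leaves (log2) in low P (filled) and normal P (open) for all probe sets whose symbol shares the stem of a named member, with members in red. All 5 RCA and all 4 BCH probe sets lie above 0, whereas the COL, ALMT and SWEET probe sets lie on both sides.

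The member with the highest score, LOC100815072, had 6.38, 5.97 and 6.09 in low P and 6.71, 6.79 and 6.96 in normal P in YH leaves, against 1.49, 1.51 and 1.40 in low P and 1.80, 1.36 and 1.43 in normal P in CD leaves. The CD leaf means were under the lower quartile of the arrays, and the root arrays lay between 1.47 and 2.50. The signal of LOC100815072 was thus below the array medians in every group but YH leaves. CD leaf means of 7 members were both under the highest lower quartile (1.67) and those of 50 members under the lowest array median (2.83). Whether such signals exceed background was not tested, and the folds of these members are uncertain.

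LOC100500559 had 6.77, 5.14 and 5.55 in low P and 6.43, 5.49 and 5.90 in normal P in YH leaves, against 1.86, 2.03 and 1.45 in low P and 2.73, 1.76 and 2.30 in normal P in CD leaves. LOC100818397 had 7.20, 6.58 and 6.37 in low P and 7.08, 6.82 and 6.95 in normal P in YH leaves, against 3.26, 2.94 and 3.05 in low P and 3.46, 3.08 and 3.03 in normal P in CD leaves. LOC100794942 had 5.48, 5.52 and 5.57 in low P and 5.62, 5.53 and 5.98 in normal P in YH leaves, against 1.64, 1.73 and 1.96 in low P and 2.59, 2.03 and 2.08 in normal P in CD leaves. None of these 3 overlapped between the accessions, and the last had closely matched YH replicates.

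LOC100806206 had 6.91, 6.21 and 5.81 in low P and 6.88, 4.57 and 5.88 in normal P in YH leaves, against 2.59, 2.48 and 1.84 in low P and 3.40, 2.07 and 2.49 in normal P in CD leaves. LOC100808330 had 7.34, 7.0 and 6.95 in low P and 7.21, 6.53 and 6.55 in normal P in YH leaves, against 3.40, 3.72 and 3.73 in low P and 3.90, 3.46 and 3.71 in normal P in CD leaves. LOC100779040 had 5.94, 4.17 and 5.24 in low P and 6.10, 4.72 and 5.18 in normal P in YH leaves, against 2.46, 2.40 and 1.56 in low P and 1.96, 2.10 and 2.29 in normal P in CD leaves. For LOC100779040, as for most members, replicate 1 was the highest of the YH leaf arrays in each P level.

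Set against the root level of the same accession, the leaf difference took 2 main forms. In 116 members the signal was at least 1 higher in YH leaves than in YH roots (mean over both P levels), with no such drop below roots in CD leaves. Among these, CD leaves were within 1 of the CD roots for 78 members, as for RCA03, and at least 1 above them for 38, as for RCABETA and COL2B. In 25 members YH leaves did not reach 1 above roots and CD leaves were at least 1 below the CD roots, 3 members did both, and 4 did neither. Over all probe sets with equal roots these shares were 9.61%, 7.31%, 0.0124% and 83.1%. The rule used these means, so the shares are a description. All root means of 72 members were under the lowest array median (2.83), and those of 21 under the highest lower quartile (1.67). For these 21, a CD leaf signal at least 1 below the roots could hardly have been seen. The split of the members between the forms may therefore depend in part on the root level, which was not tested. Across the members the median of leaves minus roots was 2.54 in YH and 0.43 in CD.

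The clearest case of a low CD leaf signal was LOC100527032. It had 7.76, 6.11 and 7.01 in low P and 7.77, 8.43 and 7.76 in normal P in YH leaves, against 4.11, 3.84 and 3.10 in low P and 3.73, 4.32 and 3.72 in normal P in CD leaves. Its roots were at 9.22 to 9.55 in YH and 9.12 to 9.57 in CD. Leaves minus roots was -1.87 in YH and -5.49 in CD, so the gene was lower in the leaves of both accessions and more so in CD.

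LOC100306369 had 10.22, 9.70 and 10.02 in low P and 10.37, 10.20 and 10.33 in normal P in YH leaves, against 7.10, 6.86 and 6.52 in low P and 7.93, 7.32 and 7.36 in normal P in CD leaves. Root arrays lay between 10.66 and 10.95. YH leaves were thus close to the root level and CD leaves well below it. LOC100784422, with -1.42 in YH and -4.11 in CD for leaves minus roots, overlapped between the accessions in leaves, since YH replicate 2 in normal P was at 4.06 and CD replicate 1 in low P at 4.51.

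Among genes of this form with an alternative name, LOC732579 is annotated with the synonyms GmERF023 and DREB2, the second a name used for drought-responsive transcription factors of the ERF family. It had 7.58, 6.61 and 6.93 in low P and 8.01, 6.89 and 7.73 in normal P in YH leaves, against 5.20, 5.37 and 4.55 in low P and 6.40, 5.01 and 4.85 in normal P in CD leaves. LOC100795072 has the synonym G3PT3, which stands for a glycerol-3-phosphate transporter. It had 6.98, 6.43 and 6.41 in low P and 6.97, 6.83 and 7.06 in normal P in YH leaves, against 5.53, 4.72 and 4.91 in low P and 4.80, 5.03 and 4.77 in normal P in CD leaves. In both genes every CD leaf array was below every root array of CD.

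The 3 members with both a gain in YH and a drop in CD were LOC100785512, LOC100776138 and LOC100819871. LOC100785512 had 6.28, 5.48 and 5.41 in low P and 6.34, 4.80 and 6.32 in normal P in YH leaves, against 2.90, 2.83 and 2.66 in low P and 3.06, 2.30 and 2.13 in normal P in CD leaves. The root means lay between the leaf means of the accessions, with arrays at 4.13 to 4.97 in YH and 4.09 to 4.61 in CD. The members LOC100811607, LOC100787633, LOC100803582 and LOC100798943 met neither limit.

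**Figure D4:**
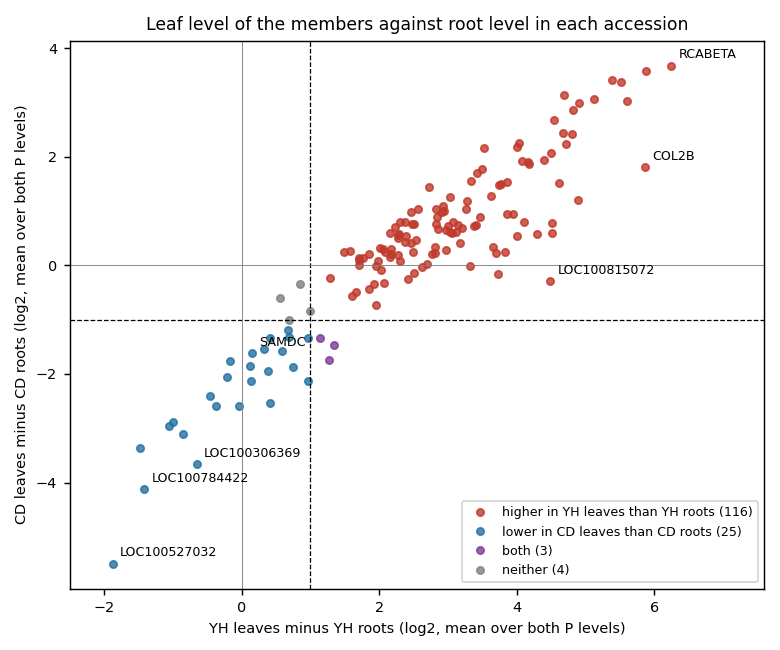
Leaves minus roots (log2, mean over both P levels) in YH (x axis) and CD (y axis), 1 point per member, with dashed lines at the limits of 1 and -1. The 116 red points (higher in YH leaves than YH roots) and the 3 points with both lie right of the vertical line, and the 25 members at the lower left had a lower CD leaf signal, down to -5.49 for LOC100527032.

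Low P against normal P was not used to choose the members, and it was tested with limma over all 75990 probe sets, with Benjamini-Hochberg adjustment. A call required a difference of at least 2-fold together with an adjusted p under 0.05. The score takes the lower YH and the higher CD leaf mean, so it disfavours members with a large leaf response to P, and the limit on root means bounds the difference between the root responses. With 3 arrays against 3 a single exact test cannot give a two-sided p below 0.1, so the calls rest on the spread pooled over groups and genes. In roots the median SD of the members was 0.191 in low P and 0.203 in normal P for YH, and 0.176 and 0.217 for CD. In YH leaves it was 0.402 and 0.461. The SE and adjusted p of a YH leaf comparison may therefore understate the spread of the YH leaf arrays.

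In YH leaves 3 members were lower in low P (2.03% of 148), against 0.0855% of all probe sets, and 0 were higher, against 0.0211%. LOC100779800 had 5.28, 4.60 and 4.92 in low P and 6.22, 6.89 and 6.47 in normal P. It fell by 1.59 on the log2 scale (SE 0.210, limma adjusted p = 0.00166), and the groups did not overlap. In CD leaves it had 1.78, 1.92 and 1.46 in low P and 2.03, 1.44 and 1.51 in normal P, near the lower quartile, where a fall could hardly have been seen.

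LOC100818267 had 5.21, 4.76 and 4.56 in low P and 5.80, 7.05 and 6.30 in normal P in YH leaves. It fell by 1.54 (SE 0.224, limma adjusted p = 0.00498). In CD leaves it had 3.20, 3.12 and 3.29 in low P and 3.56, 3.34 and 3.04 in normal P, and those groups overlapped.

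LOC100804665 had 4.60, 3.19 and 3.30 in low P and 5.36, 6.06 and 5.07 in normal P in YH leaves. Its SD there was 0.784 in low P and 0.506 in normal P, against 0.185 to 0.269 in the root groups. It fell by 1.80 (SE 0.300 from the pooled spread, limma adjusted p = 0.0140). This call was lost without YH leaf replicate 2 in low P (adjusted p = 0.127) or in normal P (adjusted p = 0.122). All 3 genes lost their call in a fit of the 6 YH leaf arrays alone (adjusted p = 1 for each from limma).

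Further members had sizeable values that did not pass in YH leaves. SWEET34 differed by -1.23 (SE 0.307, limma adjusted p = 0.137), LOC100807653 by -1.91 (SE 0.486, adjusted p = 0.149) and LOC100811790 by -1.27 (adjusted p = 0.0739). SWEET34 did not overlap between the P levels in YH leaves. An unadjusted p under 0.05 was reached by 28 members (18.9%), 7 higher and 21 lower, against 7.71% of all probe sets. The median SD in YH leaves was larger for the members (0.402 in low P, 0.461 in normal P) than over all probe sets (0.265 and 0.238). The test pooled this spread with that of less variable groups, so nothing is read from the higher shares of members in leaves. The median log2 fold change of the members was -0.03 (all probe sets, -0.00), and 109 members were within 0.5 of 0.

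Replicate 1 of YH leaves bore on these counts. Without replicate 1 in low P, 9 members were called, all lower, against 0.304% of all probe sets called lower in the same fit. Without replicate 1 in both P levels (the added alternative) 10 were called, all lower, against 0.609% of all probe sets. The counts over all probe sets thus went up together with those of the members. The 10 included SWEET34 (-1.69, limma adjusted p = 0.0231) and CYP71D10 (-1.21, adjusted p = 0.0399). Without replicate 1 in normal P 4 were called, all lower, against 0.424% of all probe sets, among them LOC100794998 (-2.54, limma adjusted p = 0.0275).

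In CD leaves limma called 0 members lower, against 0.0% of all probe sets, and 0 higher, against 0.00395%. An unadjusted p under 0.05 was reached by 8 members (5.41%), 1 higher and 7 lower, against 2.57% of all probe sets. The largest difference was that of LOC100776769, at -1.28 (adjusted p = 1), and the median was -0.06. LOC100306369 differed by -0.71 (adjusted p = 0.527), with its 3 low P arrays below its 3 normal P arrays.

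In YH roots limma called 0 members higher, against 0.0% of all probe sets, and 0 lower, against 0.00132%. None reached an unadjusted p under 0.05 (0 members, against 1.54% of all probe sets), and 147 of 148 were within 0.5 of 0. For the 21 members with all root means under the highest lower quartile, a fall in the roots of either accession could hardly have been seen. In CD roots 0 members were called higher, against 0.325%, and 0 lower, against 0.0947%. An unadjusted p under 0.05 was reached there by 3 members (2.03%), against 4.03% of all probe sets. LOC100795072 (G3PT3) had 8.28, 8.19 and 8.24 in low P and 7.43, 7.68 and 7.66 in normal P in CD roots, a difference of 0.64 (limma adjusted p = 0.226), and in YH roots it had 7.89, 7.94 and 7.70 in low P and 7.99, 7.95 and 7.54 in normal P.

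The response of YH minus the response of CD, tested as an interaction term, gave 0 calls among the members in leaves, against 0.0237% of all probe sets, and 0 in roots, against 0.158%. An unadjusted p under 0.05 was reached by 11 members in leaves (7.43%), 1 higher and 10 lower, against 3.78% of all probe sets, and by 1 member in roots (0.676%), against 2.98%. The lowest adjusted p among the members was that of LOC100779800 in leaves, with an interaction of -1.65 (SE 0.296, limma adjusted p = 0.0636). For LOC100804665 it was -1.98 (adjusted p = 0.246). The CD leaf arrays of LOC100804665 were at 2.04, 1.53 and 1.84 in low P and 1.93, 1.69 and 1.25 in normal P. These lay near the lower quartile, where a fall could hardly have been seen, as for LOC100779800. A different low P response of the accessions was therefore not called for any member with all arrays, including the 3 called in YH leaves. Without replicate 1 of YH leaves in both P levels 5 members were called, against 0.243% of all probe sets in that fit.

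The 7 genes of the photosynthesis list had 0 calls in YH leaves and in CD leaves in either direction, with log2 fold changes between -0.20 and 0.52 in YH leaves, where 0.0211% of all probe sets were called higher and 0.0855% lower. In the transporter list of 107 genes, 1 was called lower and 0 higher in YH leaves (NRAMP2A, -1.55, limma adjusted p = 0.00135), and 0 in CD leaves. The 66 cytochrome P450 genes had 0 calls in the leaves of either accession. In YH roots the 3 lists had 0 calls. In CD roots, where 0.325% of all probe sets were called higher and 0.0947% lower, the photosynthesis list had 1 call (RCAALPHA, -1.07, limma adjusted p = 0.00824), the transporter list 1 higher and 3 lower, and the cytochrome P450 list 2 higher. None of these genes was a member. The 2 Rubisco activases among the members had YH leaf responses of -0.20 (RCA03) and -0.02 (RCABETA), and COL2B one of 0.23 (adjusted p = 0.950), none of which passed the test.

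**Figure D5:**
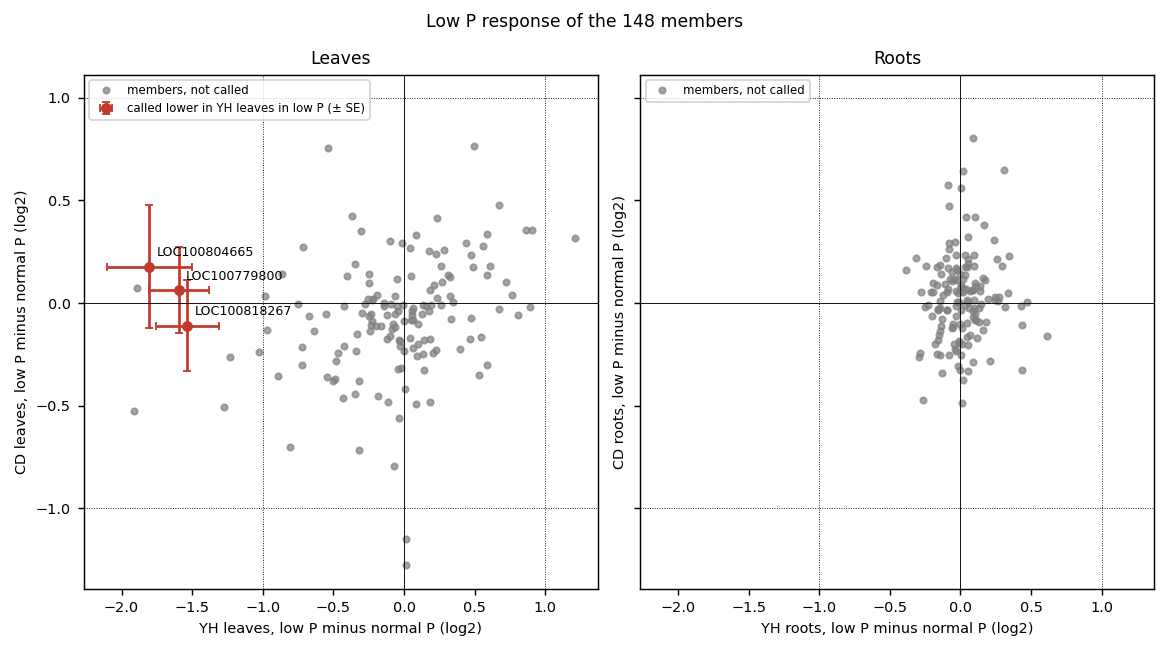
Low P minus normal P (log2) of the 148 members in YH (x axis) and CD (y axis), in leaves (left) and roots (right), with dotted lines at 2-fold. The 3 members called lower in YH leaves are in red with their standard errors, at -1.80, -1.59 and -1.54, and the root values lie between -0.49 and 0.80, against -1.91 to 1.21 for YH leaves.

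Other probe sets of the members' genes gave a second reading of the leaf difference. Such probe sets numbered 10, for 8 genes, none with identical rows. Of these, 9 had a score above 0 and 5 a score of at least 1, and in 6 all YH leaf arrays lay above all CD leaf arrays (4.37% of all probe sets). Among the 24133 probe sets with equal roots, 6966 had a score above 0 and 326 a score of at least 1. The root means of 3 of the 10 were 0.5 or more apart in at least 1 P level, namely those of LOC100793363, 1 of LOC100820096 and 1 of SAMDC, so these did not have equal roots by the rule. All 3 were among the 5 with a score of at least 1 (2.06, 1.24 and 1.99). The 10 are therefore not matched to the 24133, and nothing is read from the difference in shares. SAMDC had 2 others, with means of 10.44 in low P and 10.58 in normal P in YH leaves against 9.07 and 9.44 in CD leaves, and with 8.25 and 8.18 in YH leaves against 5.65 and 6.19 in CD leaves. The direction was the same in all 3 SAMDC probe sets.

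The other probe set of LOC100776769 ran the opposite way, with means of 4.38 in low P and 3.45 in normal P in YH leaves, against 5.66 and 6.05 in CD leaves. The leaf difference of this gene thus depended on which probe set was read. The second probe set of LOC732579 had a score of 0.65 and that of LOC100785655 one of 0.21, both smaller than the score of the member. Since the soybean genome carries many duplicated genes, signals of close copies may be mixed.

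Gene order was read from the RefSeq table of the reference assembly, which differs from the build of the array and was used for neighbours only. Of 145 members placed there, 5 pairs lay within 10 positions of each other. LOC100785655 and LOC100779940 were direct neighbours, and both had CD leaves at least 1 below CD roots, with leaves minus roots of -1.0 in YH and -2.88 in CD for the first and of -0.03 in YH and -2.59 in CD for the second. SAMDC and LOC100792298 had 2 genes between them, LOC100780848 and DD2/63 had 3, LOC100795072 and LOC100797185 had 4, and LOC100305840 and LOC100808330 had 5. The members were thus mostly not next to each other in this order.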

How the data were processed

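Values were the intensities that the authors deposited, 1 linear intensity per probe set and array with 0 missing (75990 probe sets, 24 arrays). The linear scale was inferred from the values. The authors' paper names RMA for background and normalization, whereas the submitters' notes name MAS5 (version not given). The labels give Trizol for RNA extraction, the paper a kit. Every column was used, after log2 transformation and without a filter.

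The model was a mean for each of 8 groups over all 24 arrays, fitted with limma 3.58.1 under R 4.3.3 (16 residual and 4.22 prior degrees of freedom). Adjustment of p over all probe sets of a comparison followed Benjamini and Hochberg. SAM, the method of the study, was not run here. Tables and figures were made with Python 3.11.15, pandas 2.3.3 and matplotlib 3.10.9. Of the probe sets, 32405 had 1 gene symbol, 1586 several and 41999 none in the platform annotation, and 19 identical rows were removed. Genes were named as the 12 highest scores, both sides of the limit, called members, members with a gene name, list members and neighbours. Other genes were chosen after their values were seen. The members, the lists and the rule were chosen with earlier results of these data known. Lists by protein signature or description, and sequences, were not used here.

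Whether replicate numbers could stand for pairs was checked by asking that every same-number correlation of deviations be over 0.1. That held in YH roots (0.552, 0.176 and 0.239) and CD roots (0.522, 0.144 and 0.449), and not in leaves (YH 0.492, -0.139 and 0.058; CD -0.0427, -0.297 and 0.334). The pairing comes from the data, not from the labels. The main fit did not use it in any group, roots included. The replicate block, an alternative, was applied to leaves and roots alike. The fit was tested on simulated data for low P in YH leaves. Of 50 changes each, 44 were recovered at a log2 size of 1.5, 48 at 2, 50 at 3 and 50 at -2, with 7 false calls. The simulated noise was independent, with 1 SD per probe set pooled over the groups. It could not show the effect of the larger YH leaf spread or of replicate 1. Precision is limited by the 3 arrays per group. Alternatives were quantile normalization, group medians, other root limits, excluded families removed first, the dimmest 33.3% left out (50660 kept), a separate fit, a replicate block, a tissue limit of 0.58 and each array left out.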

Additional observations from a re-analysis of the deposited data

How the results depend on the processing

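Membership depended most on the root limit: of the 148 members, 56 were chosen again with a limit of 0.25 and 88 with a limit of 1. Quantile normalization gave 140, group medians 115, excluded families removed first 148 and the dimmest 33.3% left out 142. Leaving out each of the 24 arrays gave 133 to 145, and 71 members were chosen every time. The 3 calls in YH leaves became 0 in a separate fit of each comparison and 2 to 9 when single arrays were left out. Without replicate 1 of YH leaves in both P levels, added once the data had been seen, 10 were called there (0.609% of all probe sets called lower) and 5 in the leaf interaction (0.243% of all probe sets). The leaf interaction, with 0 calls, gave 1 with the dimmest left out and 0 to 2 when single arrays were left out. It gave 2 without replicate 1 of YH leaves in low P, 2 without replicate 1 of YH leaves in normal P and 1 without replicate 1 of CD leaves in normal P. The members with both a YH gain and a CD drop, 3 in all, were 5 with quantile normalization and 12 with a limit of 0.58, and those with neither, 4 in all, were 0 with that limit. The causes were not tested. LOC100804665 (-1.80) lost its call in the separate fit and when YH leaf replicate 2 was left out (-1.55 without it in low P, -1.52 without it in normal P). LOC100818267 and LOC100779800 lost theirs only in the separate fit. The median log2 fold change with single arrays left out lay between -0.24 and 0.13 in YH leaves, between -0.11 and 0.035 in CD leaves and between -0.0074 and 0.0434 in YH roots, so these medians, all near 0, changed sign. With the replicate number as a block, 3 members were called in YH leaves (limma adjusted p = 0.0241, 0.0329 and 0.0383) and the pairing changed no other call. The 3 called genes kept their direction under every alternative. Signals near the lower quartile limit the folds of the dimmest members.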
